A study of Mus musculus with 32 samples.

Results

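Keratin 7 (Krt7), keratin 8 (Krt8), keratin 18 (Krt18), keratin 19 (Krt19) and keratin 20 (Krt20), the keratins of simple and luminal epithelium, were followed in BC57 mouse bladder cancer cells and in normal mouse urothelium, the lining of the bladder. They are the 5 probe sets named by Ensembl gene as ENSMUSG00000023039_at, ENSMUSG00000049382_at, ENSMUSG00000023043_at, ENSMUSG00000020911_at and ENSMUSG00000035775_at in the same order, of 21237 in all, listed by gene and not by a threshold on a measured value. BC57 is a cultured cell line, so that one pellet of one line stands for the tumour; urothelium was removed from 9 mice whose strain, age and sex the labels leave out, and whether RNA of several mice was pooled is not given. Each piece of urothelium and the BC57 pellet were divided, with one part kept in buffered formalin for 24 h before paraffin embedding (FFPE) and the other frozen in liquid nitrogen (FF). FFPE RNA and FF RNA were extracted with different kits, so fixation and extraction cannot be told apart.

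Each cell type was measured under 6 conditions, which gives 12 groups and 32 arrays. FFPE RNA was amplified with the GeneChip WT Pico kit from 0.5 ng (3 arrays of each cell type) and from 2 ng (3 of each), and with the SensationPlus kit from 50 ng (2 of each). FF RNA was amplified with WT Pico from 0.5 ng (3 of each) and from 2 ng (3 of each), and with the WT Plus kit from 100 ng (2 of each), which the series names as its reference. The replicates are repeats of a sample, with nothing in the labels to say that they came from separate mice or cultures, so that p-values measure only the spread between these arrays, which may be technical. Outside WT Pico, kit and input were tied.

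Keratins are the intermediate filament proteins of epithelia, and a filament is built from dimers of a type II and a type I chain. Krt8 (type II) and Krt18 (type I) form the founding pair of simple epithelia, Krt7 (type II) accompanies them in ducts and in urothelium, and Krt19 (type I) is a short keratin that lacks the usual tail domain. Krt20 (type I) is found in intestinal epithelium and, in urothelium, in the umbrella cells of the surface layer. On the RefSeq annotation of GRCm38.p6 the 3 genes Krt7 (chr15:101412403-101427806), Krt8 (chr15:101996711-102004342) and Krt18 (chr15:102028216-102032026) lie on chromosome 15. Krt8 and Krt18 are neighbours with 23.9 kb between them, although Krt18 is a type I gene; Krt19 (chr11:100140810-100145926) and Krt20 (chr11:99428385-99438153) lie on chromosome 11.

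The 250 bases before the start of Krt7 and of Krt20 are shown because these members stood at the ends of the family in what follows: Krt7 differed least between FFPE and FF RNA with WT Pico, and Krt20 alone fell with every FFPE kit. Capitals mark matches, on either strand, to the motifs named after the sequences (RefSeq, GRCm38.p6; Krt7 on the plus strand at chr15:101412153-101412402, Krt20 on the minus strand at chr11:99438154-99438403).
Krt7: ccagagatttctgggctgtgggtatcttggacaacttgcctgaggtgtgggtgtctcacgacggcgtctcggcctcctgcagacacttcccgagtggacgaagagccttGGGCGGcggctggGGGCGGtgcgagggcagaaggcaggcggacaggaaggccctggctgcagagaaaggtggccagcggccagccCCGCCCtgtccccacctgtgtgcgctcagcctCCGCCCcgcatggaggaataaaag
Krt20: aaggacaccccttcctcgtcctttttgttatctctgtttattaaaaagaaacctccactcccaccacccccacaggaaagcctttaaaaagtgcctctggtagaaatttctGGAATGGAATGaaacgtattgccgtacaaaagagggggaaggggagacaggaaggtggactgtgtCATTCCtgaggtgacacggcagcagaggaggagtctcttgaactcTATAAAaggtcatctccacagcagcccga

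The TATA box motif TATAAA stood in Krt20 with its first base at -29 from the annotated start, and 13.6% of 32851 RefSeq windows (250 bases before the start and 50 after) held it. The GC box motif GGGCGG stood 4 times in Krt7 and in none of the windows of Krt8, Krt18 and Krt20, against 35.7% of all windows. The TEAD motif GGAATG stood 3 times in Krt20, 2 of them sharing 1 base, and in none of the other windows found, against 14.7% of all windows. Krt8 held TATAAA in matches that straddle its annotated start, and Krt18 held none of the motifs. No member held the AP-1 motif TGANTCA, which 7.81% of windows held. A match is a run of letters and shows no binding, and Krt19 had no window in the table used.

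All 5 keratins were among the brightest 20% of all probe sets by mean level over the FF 100 ng arrays. Their place in the other conditions was not counted, and Krt20 read as low as 6.25 (BC57, FFPE 0.5 ng). Apart from those of these 5 genes, probe set identifiers were not paired with gene names in the tables used here, so that uroplakins, basal keratins, stromal and leukocyte markers were not examined, and the part that other cells of the tissue have in any result was not tested. Levels are log2 values after robust multi-array averaging (RMA), and a difference of 1 is a factor of 2. A call required a size of at least 1 on the log2 scale together with an adjusted p under 0.05 (limma over all 21237 probe sets, 2-sided), and "rose" and "fell" are used only of called differences. Medians over all probe sets of an array lay between 5.62 and 5.8 in FFPE WT Pico arrays, 5.43 and 5.55 in FFPE 50 ng arrays, 5.28 and 5.42 in FF WT Pico arrays, and 5.35 and 5.44 in FF 100 ng arrays. Replicate arrays of a group correlated at r = 0.964 to 0.993 over probe sets in FFPE groups and at r = 0.992 to 0.997 in FF groups. In tissue RNA, fewer cells of a type and less RNA per cell cannot be told apart. Overlap of groups is given below only to describe the arrays. The share of all 21237 probe sets without overlap was not counted, so its absence is not a result about these genes. Groups of 2 or 3 arrays can stand apart by little. Krt18 at FF 2 ng did so with 12.26 as the lowest BC57 array and 12.25 as the highest of urothelium (limma, adjusted p = 0.2).

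Type II chains first, Krt8 was the member with the largest range. In FFPE 0.5 ng arrays it read 9.24, 8.92 and 9.58 in BC57 and 7.92, 7.52 and 7.06 in urothelium. In FFPE 2 ng arrays it read 9.62, 9.39 and 9.33 in BC57 and 8.25, 8.07 and 8.20 in urothelium, and in FFPE 50 ng arrays 11.13 and 10.93 in BC57 and 9.77 and 9.73 in urothelium. Every FFPE array of BC57 was above every urothelium array of its condition, and the gap was wide against the spread. In FF arrays Krt8 read 11.29, 11.17 and 11.08 in BC57 against 10.47, 10.54 and 10.43 in urothelium at 0.5 ng. It read 11.21, 11.16 and 11.25 in BC57 against 10.57, 10.62 and 10.51 in urothelium at 2 ng, and 10.66 and 10.46 in BC57 against 10.10 and 9.96 in urothelium at 100 ng. BC57 was again the higher in all 3 FF conditions, without overlap, by a smaller step. Over the 12 groups Krt8 was highest in BC57 FF 2 ng (11.21 ± 0.04, SD, n = 3) and lowest in urothelium FFPE 0.5 ng (7.50 ± 0.43, SD, n = 3). The top 3 groups were all BC57. Of these the first overlapped with the second and the second with the third, and the third did not overlap with the fourth.

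Krt7, the type II chain of ducts and urothelium, had the narrowest range. It read 9.44, 9.47 and 9.50 in BC57 against 8.56, 8.59 and 8.53 in urothelium at FFPE 0.5 ng. At FFPE 2 ng it read 9.79, 9.84 and 9.74 in BC57 against 8.88, 8.90 and 8.85 in urothelium, and at FFPE 50 ng 10.28 and 10.19 in BC57 against 9.76 and 9.68 in urothelium. The FFPE groups of the cell types did not overlap, and urothelium with WT Pico stood lowest of all. In FF RNA Krt7 read 10.07, 10.05 and 10.00 in BC57 against 9.74, 9.75 and 9.68 in urothelium at 0.5 ng. It read 9.95, 10.06 and 10.03 in BC57 against 9.81, 9.76 and 9.81 in urothelium at 2 ng, and 10.25 and 10.11 in BC57 against 9.76 and 9.75 in urothelium at 100 ng. BC57 was higher in each FF condition, with no overlap. In the order of the 12 groups, the 5 places from the fifth to the ninth, between 9.79 and 9.72, overlapped with their neighbours and held every FF urothelium group, FFPE 50 ng urothelium and BC57 FFPE 2 ng.

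Krt18, the type I partner of Krt8, differed little between the cell types in FF RNA as deposited, and more in FFPE RNA. At FFPE 0.5 ng it read 10.28, 10.49 and 10.09 in BC57 against 9.43, 8.97 and 9.48 in urothelium. At FFPE 2 ng it read 10.76, 10.76 and 10.56 in BC57 against 9.38, 9.50 and 9.51 in urothelium, and at FFPE 50 ng 12.40 and 12.39 in BC57 against 11.82 and 11.66 in urothelium. All FFPE arrays of BC57 were above those of urothelium at the same input. In FF RNA it read 12.34, 12.34 and 12.30 in BC57 against 12.20, 12.25 and 12.20 in urothelium at 0.5 ng. It read 12.26, 12.33 and 12.33 in BC57 against 12.25, 12.25 and 12.18 in urothelium at 2 ng, and 12.28 and 12.19 in BC57 against 12.06 and 11.91 in urothelium at 100 ng. The FF groups stood apart only by small margins, and in the order of the 12 groups those at the second to sixth places overlapped with their neighbours.

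Krt19, the tailless type I chain, was the higher in BC57 in FFPE RNA and the lower in FF RNA. It read 9.05, 9.33 and 9.20 in BC57 against 8.61, 8.72 and 8.62 in urothelium at FFPE 0.5 ng. At FFPE 2 ng it read 9.37, 9.31 and 9.18 in BC57 against 8.84, 8.97 and 8.76 in urothelium, and at FFPE 50 ng 10.58 and 10.53 in BC57 against 10.18 and 10.13 in urothelium. In FFPE RNA, BC57 was the higher in every condition without overlap. In FF RNA Krt19 read 10.74, 10.59 and 10.59 in BC57 against 10.74, 10.84 and 10.70 in urothelium at 0.5 ng. It read 10.71, 10.73 and 10.74 in BC57 against 10.94, 10.92 and 10.95 in urothelium at 2 ng, and 10.28 and 10.17 in BC57 against 10.37 and 10.42 in urothelium at 100 ng. BC57 was the lower in FF RNA, with overlap at 0.5 ng and none at 2 and 100 ng.

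Krt20, the umbrella cell keratin, was the member that most set FF 100 ng apart from the other conditions. At FFPE 0.5 ng it read 7.23, 7.36 and 6.25 in BC57 against 6.51, 6.50 and 6.58 in urothelium. At FFPE 2 ng it read 7.18, 7.14 and 7.09 in BC57 against 6.58, 6.76 and 6.63 in urothelium, and at FFPE 50 ng 8.58 and 8.66 in BC57 against 8.06 and 8.10 in urothelium. BC57 array 3 at 0.5 ng stood about a unit below its replicates and below every urothelium array of that condition, and the other FFPE groups did not overlap. In FF RNA Krt20 read 9.01, 8.89 and 8.96 in BC57 against 9.11, 9.08 and 8.96 in urothelium at 0.5 ng. It read 8.80, 8.85 and 8.80 in BC57 against 9.14, 9.11 and 9.25 in urothelium at 2 ng, and 9.83 and 9.81 in BC57 against 10.16 and 10.24 in urothelium at 100 ng. BC57 was the lower in FF RNA, with overlap at 0.5 ng only. The highest 2 of the 12 groups were those of FF 100 ng, and the lowest 4 were the FFPE WT Pico groups, which overlapped with their neighbours.

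**Figure D1:**
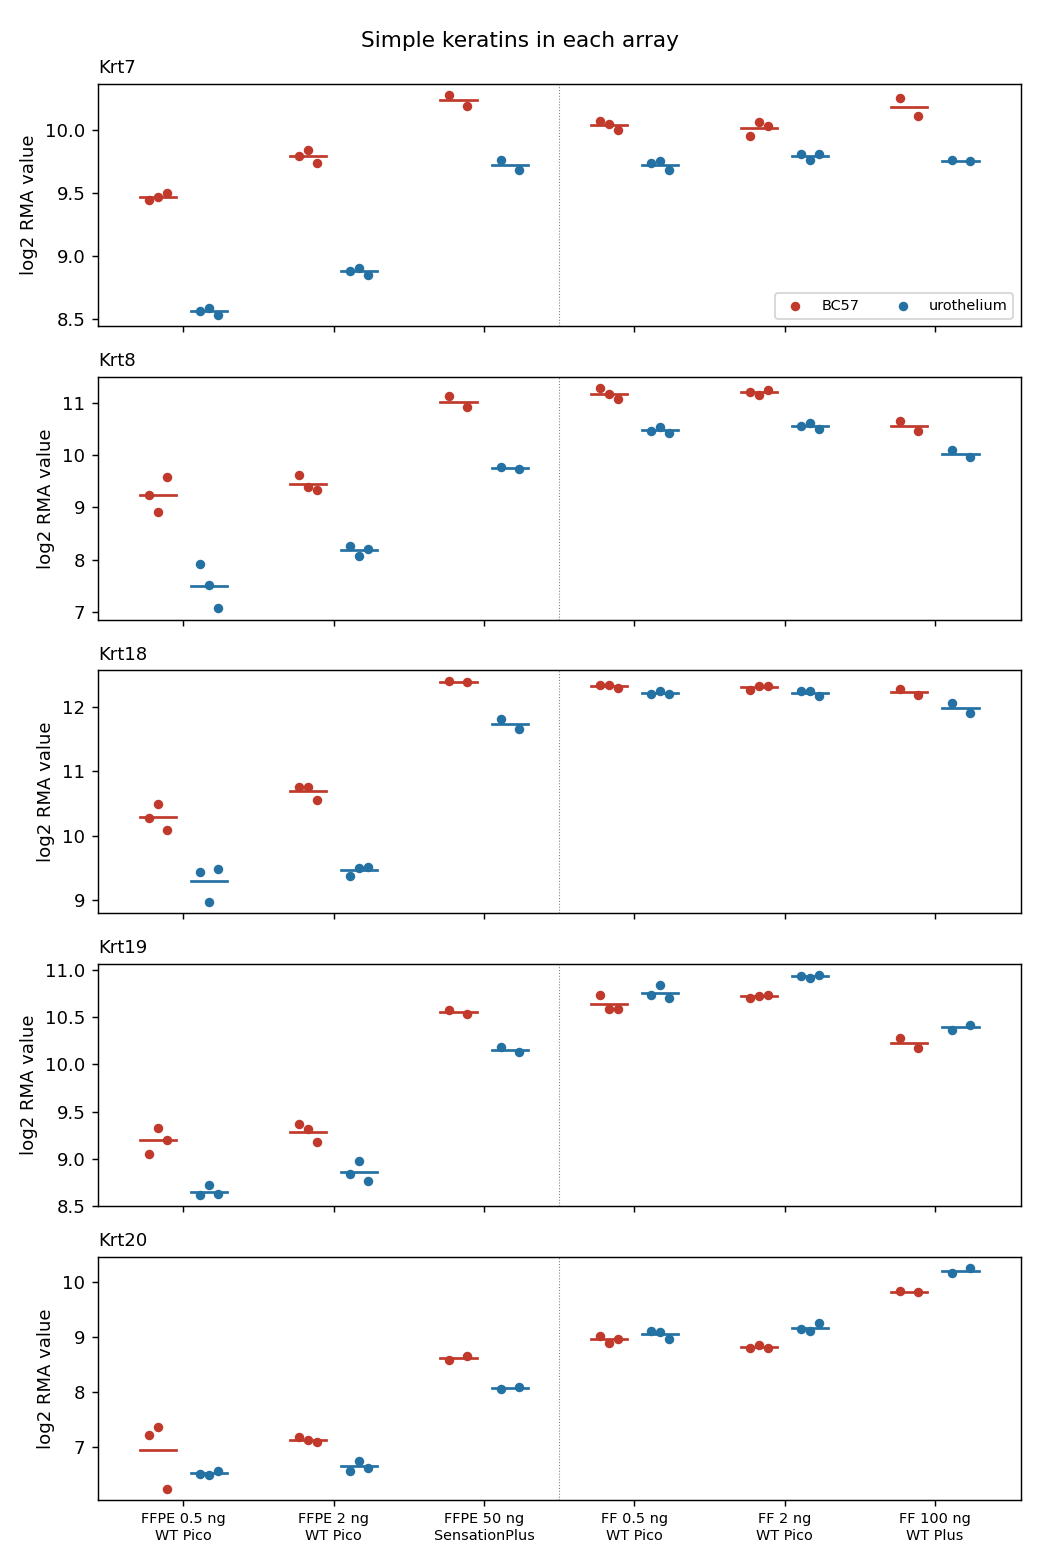
Log2 RMA value of each keratin (vertical axis, a scale of its own for each gene) in every array, by condition, with BC57 in red left of urothelium in blue; points are arrays and bars are group means. FFPE conditions stand left of the dotted line and FF conditions right of it, and the FFPE WT Pico groups hold the lowest points of every gene.

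The first comparison asked how each keratin differed between BC57 and urothelium, within each condition. In FFPE RNA the keratins of both types stood higher in BC57, with Krt8 furthest. In FF RNA none of the 5 reached the call. Krt8, the type II chain of simple epithelia, rose in BC57 by 1.74 ± 0.25 (log2, SE; adjusted p = 0.00412) at FFPE 0.5 ng, by 1.27 ± 0.11 (adjusted p = 6.59e-05) at FFPE 2 ng and by 1.28 ± 0.11 (adjusted p = 0.000287) at FFPE 50 ng. Its FF differences of 0.70 ± 0.07, 0.64 ± 0.05 and 0.53 ± 0.09 at 0.5, 2 and 100 ng had adjusted p of 7.72e-06, 3.16e-06 and 0.0037, below the size for a call. Krt18 rose in BC57 by 1.23 ± 0.11 (adjusted p = 8.39e-05) at FFPE 2 ng.

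Thus 1 member was called higher in BC57 at FFPE 0.5 ng, against 3.05% of all probe sets, 2 at FFPE 2 ng against 4.94%, and 1 at FFPE 50 ng against 9.19%. No member was called at FF 0.5, 2 and 100 ng, where 8.11%, 7.63% and 8.06% of probe sets were called higher and 6.88%, 7.34% and 7.36% lower. At an adjusted p under 0.05 of any size, 4 members were higher in BC57 at FFPE 0.5 ng (8.97% of all probe sets), 5 at FFPE 2 ng (18.4%) and 5 at FFPE 50 ng (24%). With quantile normalization these counts were 3, 4 and 2 at FFPE 0.5, 2 and 50 ng. The share of all probe sets past this threshold with that scaling was not counted, so the 3 counts have no background beside them. At FF 0.5 ng 2 members, Krt7 and Krt8, were higher by that measure (25% of probe sets). At FF 2 ng the same 2 were higher (33.7%) with Krt19 and Krt20 lower (23.3%), and at FF 100 ng they were higher (27.6%) with Krt20 lower (23.1%). The median difference of the 5 members was 0.91, 0.91 and 0.54 at FFPE 0.5, 2 and 50 ng and 0.11, 0.08 and 0.25 at FF 0.5, 2 and 100 ng, beside -0.08, -0.10 and -0.01 and then 0.07, 0.10 and 0.07 over all probe sets. With quantile normalization the members' medians were 0.66, 0.43 and 0.11 at FFPE 0.5, 2 and 50 ng and 0.24, 0.17 and 0.32 at FF 0.5, 2 and 100 ng, so that the FFPE median was no longer the higher at 50 against 100 ng.

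For Krt18 the difference at FFPE 0.5 ng, 1.0 ± 0.17 (adjusted p = 0.00833), was just under the size for a call, and it was 0.66 ± 0.12 (adjusted p = 0.00634) at FFPE 50 ng. In FF RNA it was 0.11 ± 0.04, 0.08 ± 0.05 and 0.25 ± 0.08 at 0.5, 2 and 100 ng, with adjusted p of 0.0716, 0.2 and 0.0512. With quantile normalization these Krt18 differences were 0.67, 0.70 and 0.72 at FFPE 0.5, 2 and 50 ng and 0.36 (adjusted p = 1.43e-05), 0.28 (0.00272) and 0.50 (0.0183) in FF RNA at 0.5, 2 and 100 ng. Krt7 differed by 0.91 ± 0.09, 0.91 ± 0.09 and 0.52 ± 0.10 at FFPE 0.5, 2 and 50 ng. Its FF differences were 0.31 ± 0.06, 0.22 ± 0.05 and 0.43 ± 0.07 at 0.5, 2 and 100 ng. BC57 was higher in Krt7 in all 6 conditions, at an adjusted p of at most 0.00705 in each.

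The type I chains Krt19 and Krt20 had opposite signs in FFPE and FF RNA, for Krt19 only as deposited and not with quantile normalization. Krt19 differed by 0.55 ± 0.11 (adjusted p = 0.0153), 0.43 ± 0.11 (0.0139) and 0.40 ± 0.10 (0.0189) at FFPE 0.5, 2 and 50 ng. In FF RNA it differed by -0.13 ± 0.07 (adjusted p = 0.162), -0.21 ± 0.05 (0.0031) and -0.16 ± 0.07 (0.102) at 0.5, 2 and 100 ng. Krt19 thus stood higher in BC57 in FFPE RNA and lower in FF RNA as deposited, by values under 1. Krt20 differed by 0.42 ± 0.28 (adjusted p = 0.338), 0.48 ± 0.09 (0.00319) and 0.54 ± 0.09 (0.0034) at FFPE 0.5, 2 and 50 ng. In FF RNA it differed by -0.09 ± 0.08 (adjusted p = 0.373), -0.35 ± 0.06 (0.000417) and -0.38 ± 0.06 (0.00318) at 0.5, 2 and 100 ng. None of these differences was large enough for a call, and without BC57 array 3 at FFPE 0.5 ng that of Krt20 was 0.77 (adjusted p = 0.0108). With all 32 arrays in one limma fit, Krt20 had adjusted p of 0.0638 at FF 2 ng and 0.125 at FF 100 ng. In FFPE RNA that fit gave Krt20 0.0388, 0.0128 and 0.0224 at 0.5, 2 and 50 ng.

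With quantile normalization of the deposited values, Krt8 was 0.78 (adjusted p = 0.00381) at FFPE 2 ng and 0.71 (0.00262) at FFPE 50 ng, Krt18 was 0.70 (0.00218) at FFPE 2 ng, Krt7 was 0.04 at FFPE 50 ng and Krt19 was -0.07 with FFPE 2 ng, 0.02 with FFPE 50 ng and 0.04 with FF 0.5 ng, so that of the 4 calls only Krt8 at FFPE 0.5 ng was left (1.64). Krt18 at FFPE 0.5 ng was called when any of the BC57 arrays 1 and 3 or the urothelium arrays 1 and 3 was left out (1.0 to 1.10), and with arrays centred on their medians (1.06).

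**Figure D2:**
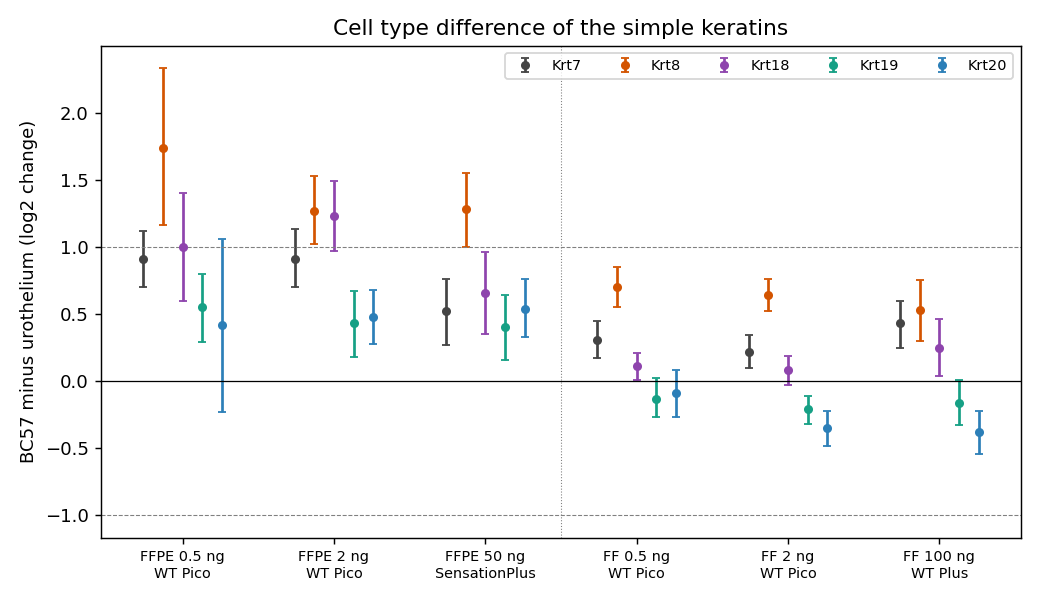
BC57 minus urothelium (log2 change, vertical axis) of each keratin under the 6 conditions (horizontal axis), each with its 95% interval; FFPE conditions stand left and FF conditions right. In the values as deposited the FFPE differences are all above 0, up to 1.74 for Krt8, and those of Krt19 and Krt20 in FF RNA are all below 0; with quantile normalization Krt19 is -0.07 at FFPE 2 ng and 0.04 at FF 0.5 ng.

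Whether the cell type difference itself differed between conditions was tested as an interaction. Against FF 100 ng, the difference of Krt8 was larger by 1.22 ± 0.35 (adjusted p = 0.0411) at FFPE 0.5 ng, the only member called, with 4.28% of all probe sets called higher. Leaving out any one of 8 of the 10 arrays ended this call, and so did the replicate block. Over all 10 arrays left out in turn the values lay between 1.0 and 1.43. No member was called at FFPE 2 ng (3.76% of probe sets higher), FFPE 50 ng (0.876%), FF 0.5 ng (0.381%) or FF 2 ng (0.447%). Compared at equal input with WT Pico, Krt8 was called at 0.5 ng (1.05, adjusted p = 0.0177; 4.07% of probe sets higher) and Krt18 at 2 ng (1.15 ± 0.12, adjusted p = 1.37e-05; 4.31%). The Krt8 call ended without array 3 of FFPE BC57 (0.88), of FFPE urothelium (0.83) or of FF BC57, where the value was at the edge of the rule.

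For Krt20 the BC57 minus urothelium value was higher in FFPE than in FF 100 ng RNA, by 0.86 ± 0.12 (adjusted p = 0.000533) at 2 ng and by 0.92 ± 0.10 (adjusted p = 0.00252) at 50 ng. It was higher in FFPE than in FF RNA at 2 ng by 0.83 (adjusted p = 3.99e-05). At FFPE 0.5 ng the interaction was 0.79 ± 0.38 (adjusted p = 0.191), and without the low BC57 array 3 it was 1.14 (adjusted p = 0.000689), a call. For Krt19 the BC57 minus urothelium value was higher by 0.71, 0.59 and 0.56 at FFPE 0.5, 2 and 50 ng than at FF 100 ng, with adjusted p of 0.00964, 0.0141 and 0.0178. Both Krt19 and Krt20 were thus lower in BC57 than in urothelium in FF RNA and higher in FFPE RNA, and the change between these was past an adjusted p of 0.05 in 5 of the 6 tests against FF 100 ng as deposited, and in 2 of the 6, both of Krt20, with quantile normalization. Krt18 gave 0.75 (adjusted p = 0.0612), 0.99 (0.00142) and 0.41 (0.101) at FFPE 0.5, 2 and 50 ng against FF 100 ng, and Krt7 gave 0.48 (0.0249), 0.49 (0.0163) and 0.09 (0.643). FF 0.5 ng and FF 2 ng against FF 100 ng gave adjusted p of 0.218 to 0.971 for the 5 members. In all, every member past an adjusted p of 0.05 had the higher BC57 minus urothelium value in FFPE. Against FF 100 ng these members were 3 at FFPE 0.5 ng (9.22% of probe sets in that direction), 5 at FFPE 2 ng (12.4%) and 3 at FFPE 50 ng (6.68%). They were 0 at FF 0.5 ng (1.03%) and FF 2 ng (3.01%). At equal WT Pico input they were 4 at 0.5 ng (9.13%) and 5 at 2 ng (17.1%).

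These comparisons share the FF 100 ng arrays. With quantile normalization 6 of the 35 interactions of the members had an adjusted p under 0.05, against 20 as deposited, and 1 of the 6 was Krt8 at FF 0.5 ng against FF 100 ng (0.51, 0.0331). With quantile normalization Krt20 held an adjusted p under 0.05 at FFPE 2 ng (0.92, 0.00261) and 50 ng (0.61, 0.0157) against FF 100 ng and at 2 ng between FFPE and FF (0.86, 0.000359), while Krt8 gave 1.18 (0.186) at FFPE 0.5 ng against FF 100 ng, 0.68 (0.269) at 0.5 ng between FFPE and FF and -0.15 at 2 ng, and Krt18 gave 0.42 (0.0304) at 2 ng. Against FF 100 ng at FFPE 0.5, 2 and 50 ng, it gave 0.50 (adjusted p = 0.114), 0.17 (0.443) and 0.27 (0.122) for Krt19 and 0.18 (0.785), 0.20 (0.511) and 0.22 (0.508) for Krt18.

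The next comparison asked how fixation with its extraction went with the level of each keratin at the same kit and input. With WT Pico, Krt8, Krt18, Krt19 and Krt20 fell in FFPE RNA of both cell types at both inputs. As deposited, the values were further below 0 in urothelium than in BC57. The limma adjusted p for this difference was under 0.05 at both inputs for Krt8, Krt18 and Krt19 and at 2 ng for Krt20. It was not for Krt20 at 0.5 ng (0.51 ± 0.30, adjusted p = 0.262). With quantile normalization it stayed under 0.05 for Krt18 (0.42, 0.0304) and Krt20 (0.86, 0.000359) at 2 ng only. Krt8 gave 0.68 (0.269) at 0.5 ng and -0.15 (0.561) at 2 ng, and Krt18 gave 0.31 (0.358) at 0.5 ng. Krt19 gave 0.23 (0.31) at 0.5 ng and 0.01 (0.969) at 2 ng. With that scaling Krt8 at 2 ng was -1.40 in BC57 and -1.25 in urothelium. In urothelium at 2 ng, Krt18 fell by 2.77 ± 0.09 (log2, SE; 6.8-fold, adjusted p = 1.95e-10), Krt20 fell by 2.51 ± 0.07 (5.7-fold), Krt8 fell by 2.39 ± 0.09 (5.25-fold) and Krt19 fell by 2.08 ± 0.08 (4.22-fold). In BC57 at 2 ng, Krt8 fell by 1.76 ± 0.09 (3.38-fold, adjusted p = 1.79e-08), Krt20 fell by 1.68 ± 0.07, Krt18 fell by 1.61 ± 0.09 and Krt19 fell by 1.44 ± 0.08. By size of change, either way, Krt18 ranked 67th, Krt20 124th and Krt8 159th of the 21237 probe sets in urothelium at 2 ng.

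At 0.5 ng in urothelium Krt8 fell by 2.98 ± 0.20 (7.89-fold, adjusted p = 1.01e-07), Krt18 fell by 2.93 ± 0.13 (7.6-fold), Krt20 fell by 2.52 ± 0.22 (5.73-fold) and Krt19 fell by 2.12 ± 0.09 (4.33-fold). At 0.5 ng in BC57 Krt18 fell by 2.04 ± 0.13, Krt20 fell by 2.01 ± 0.22, Krt8 fell by 1.94 ± 0.20 and Krt19 fell by 1.44 ± 0.09. Krt7 was the exception among the 5: as deposited it fell only in urothelium at 0.5 ng, by 1.16 ± 0.08, and gave -0.92 ± 0.07 in urothelium at 2 ng, -0.57 ± 0.08 in BC57 at 0.5 ng and -0.22 ± 0.07 in BC57 at 2 ng. The called members were 4 in BC57 at 0.5 ng (8.36% of probe sets called lower), 5 in urothelium at 0.5 ng (10.2%), 4 in BC57 at 2 ng (5.54%) and 4 in urothelium at 2 ng (10.3%).

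The median FFPE minus FF change of the 5 members was -1.94 in BC57 and -2.52 in urothelium at 0.5 ng, and -1.61 in BC57 and -2.39 in urothelium at 2 ng. Over all probe sets the medians were 0.39, 0.47, 0.28 and 0.39 in the same order, so that the bulk of probe sets read somewhat higher in FFPE RNA. Among the brighter probe sets (mean over all arrays above the median) they were -0.22, -0.21, -0.15 and -0.27. Among the brightest 20% of probe sets at FF 100 ng, to which the members belong, the medians were -0.67, -0.76, -0.50 and -0.80, and the lowest 10% of them lay at or below -1.52, -1.82, -1.31 and -1.78. Taken singly, Krt8, Krt18 and Krt20 were below these limits in all 4 cases, Krt19 was below them in all but BC57 at 0.5 ng (-1.44), and Krt7 was above them in all 4. Krt7 was close to the median of the bright probe sets in BC57 at 0.5 ng and above it at 2 ng. The brightest 20% were picked by FF arrays alone. That choice can by itself put them lower in FFPE RNA, and its size was not tested.

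With array medians centred, the calls in these 4 comparisons were 9.95%, 16.2%, 10.1% and 11.3% in the higher direction, against 45.1%, 63.8%, 33% and 54.8% as deposited, and the members' medians were -2.32, -2.93, -1.90 and -2.78. Krt7 was then called in urothelium at 2 ng as well (-1.31, adjusted p = 1.96e-08) and was -0.95 in BC57 at 0.5 ng. With quantile normalization Krt8, Krt18 and Krt20 kept their calls in all 4 comparisons (3 members each), the changes of Krt19 lay between -0.91 and -0.69 and ended its calls, and Krt7 read higher in FFPE RNA of BC57, by 0.31 at 0.5 ng and 0.43 at 2 ng, and lost its call in urothelium at 0.5 ng (-0.12, adjusted p = 0.21). Of all 21237 probe sets, that scaling called 1574 in BC57 and 2889 in urothelium at 0.5 ng, either way. At 2 ng it called 929 in BC57 and 2402 in urothelium.

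With SensationPlus at 50 ng against FF RNA with WT Plus at 100 ng, Krt20 was the only member that fell, by 1.2 ± 0.07 (2.3-fold, adjusted p = 2.79e-05) in BC57, and fell by 2.12 ± 0.07 (4.35-fold, adjusted p = 2.56e-06) in urothelium. That is 1 member in each, with 2.47% and 4.41% of probe sets called lower in BC57 and urothelium. The other 4 members lay between 0.06 and 0.47 in BC57 and between -0.28 and -0.03 in urothelium, with an adjusted p under 0.05 for Krt8 and Krt19 in both cell types and opposite signs. Krt8 was 0.47 ± 0.10 (adjusted p = 0.00879) in BC57 and -0.28 ± 0.10 (0.0499) in urothelium, and Krt19 was 0.32 ± 0.07 (0.00943) in BC57 and -0.23 ± 0.07 (0.0257) in urothelium. With quantile normalization the urothelium values were 0.05 for Krt8 and 0.02 for Krt19. Preservation, extraction, kit and input all differ between these groups and cannot be told apart.

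**Figure D3:**
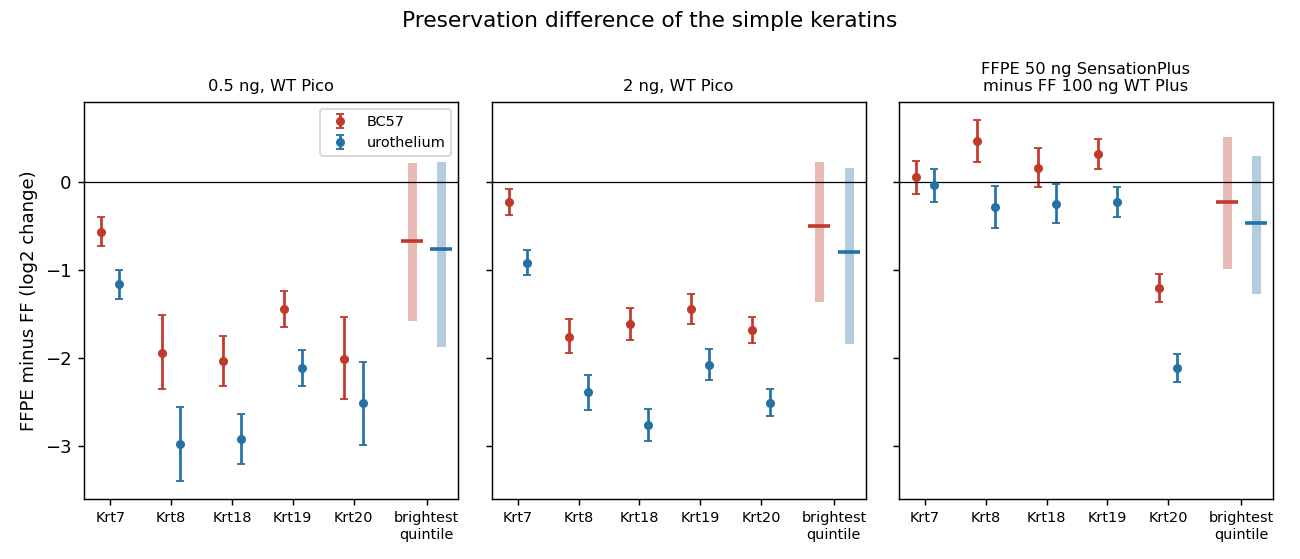
FFPE minus FF change (log2, vertical axis) of each keratin in BC57 and in urothelium, in 1 panel for each pair of conditions, with the brightest 20% of probe sets at FF 100 ng beside them as median with the range between their lowest and highest 10%. These probe sets were picked by FF arrays alone, and in the last panel the same FF 100 ng arrays are part of the comparison. With WT Pico, Krt8, Krt18, Krt19 and Krt20 lie between -2.98 and -1.44, and in the comparison of SensationPlus with WT Plus only Krt20 is below -1; with quantile normalization Krt19 lies between -0.91 and -0.69 with WT Pico.

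Kit and input were then compared within one preservation. In FF RNA, WT Pico against WT Plus at 100 ng gave a lower Krt20 and somewhat higher Krt8 and Krt19. Krt20 fell by 1.15 ± 0.07 (adjusted p = 5.74e-07) in urothelium at 0.5 ng, fell by 1.03 ± 0.06 (adjusted p = 1.8e-07) in urothelium at 2 ng and fell by 1.0 ± 0.06 (adjusted p = 2.32e-07) in BC57 at 2 ng, and gave -0.87 ± 0.07 in BC57 at 0.5 ng, under the size for a call. It was the only called member, with 2.44%, 2.12%, 2.11% and 2.22% of probe sets called lower in the same order. The 2 ng calls lay at the edge of the rule and were lost with arrays centred on their medians, at -0.97 in urothelium and -1.0 in BC57. Krt8 read higher with WT Pico by 0.62 ± 0.08 and 0.65 ± 0.07 in BC57 and by 0.45 ± 0.08 and 0.54 ± 0.07 in urothelium at 0.5 and 2 ng, and Krt19 by 0.41 ± 0.07 and 0.50 ± 0.05 in BC57 and by 0.37 ± 0.07 and 0.54 ± 0.05 in urothelium, with adjusted p of at most 0.00202 in each and no call. Krt7 and Krt18 differed by at most 0.24 either way.

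In FFPE RNA, WT Pico against SensationPlus at 50 ng went with lower levels of all 5 members in each case as deposited, by the least for Krt7. Krt18 changed by -2.11 ± 0.17 in BC57 and -2.45 ± 0.17 in urothelium at 0.5 ng, and by -1.70 ± 0.12 in BC57 and -2.28 ± 0.12 in urothelium at 2 ng. Krt8 changed by -1.78 ± 0.25 in BC57 and -2.25 ± 0.25 in urothelium at 0.5 ng, and by -1.58 ± 0.12 in both cell types at 2 ng. The changes of Krt20 lay between -1.67 and -1.42 and those of Krt19 between -1.51 and -1.27 over these comparisons, all called. Krt7 fell in urothelium at 0.5 ng, by 1.16 ± 0.09, and gave -0.77 ± 0.09 in BC57 at 0.5 ng, -0.84 ± 0.09 in urothelium at 2 ng and -0.45 ± 0.09 in BC57 at 2 ng. With arrays centred on their medians Krt7 was also called in BC57 at 0.5 ng (-1.05) and in urothelium at 2 ng (-1.06). The called members were 4 in BC57 (6.46% of probe sets called lower) and 5 in urothelium (5.25%) at 0.5 ng, and 4 in BC57 (4.62%) and 4 in urothelium (4.42%) at 2 ng. With quantile normalization Krt8 in BC57 was -0.73 (adjusted p = 0.122) at 0.5 ng, Krt8 at 2 ng was -0.80 in BC57 and -0.87 in urothelium, Krt7 in urothelium at 0.5 ng was -0.41, and Krt19 lay between -0.63 and -0.39, so that these calls ended.

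Within WT Pico no member was called at 0.5 ng against 2 ng, in FFPE RNA (0.0188% of probe sets called in BC57 and 0% in urothelium) or in FF RNA (0.00471% in BC57 and 0.0188% in urothelium). The FF changes were between -0.17 and 0.14. In FFPE RNA all 10 values were below 0, the largest for Krt8 in urothelium at -0.68 ± 0.21 (adjusted p = 0.218) and the next for Krt18 in BC57 at -0.41 ± 0.15 (adjusted p = 0.14), and none passed an adjusted p of 0.05 in the fit of these 4 groups. With all 32 arrays in one fit, 4 of the FFPE values passed it: Krt7 (-0.32, adjusted p = 0.00229) and Krt18 (-0.41, 0.0136) in BC57, and Krt7 (-0.32, 0.00381) and Krt8 (-0.68, 0.0111) in urothelium, all under the size for a call. That fit called 29 of 21237 probe sets in each cell type, and the share past an adjusted p of 0.05 at any size was not counted.

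Krt8 and Krt18 are partners in a filament, and whether they differed alike between the cell types was tested on the difference of their log2 values within an array. The size of this difference carries no meaning of its own, since the probe sets differ. Both WT Pico inputs were pooled. The arrays of a cell type are repeats at these inputs, so p measures only the spread between them, which may be technical. In FF WT Pico arrays it was -1.12 ± 0.08 in BC57 and -1.70 ± 0.05 in urothelium (SD, n = 6 each), a gap of 0.57 with an exact 2-sided permutation p of 0.00216, the smallest that 924 relabelings allow (0.00432 after Benjamini-Hochberg adjustment over 2 tests). Krt8 thus stood higher in BC57 by more than Krt18 did, and the gap was 0.59 at 0.5 ng and 0.56 at 2 ng taken alone, each with an exact p of 0.1, the smallest that 3 against 3 arrays allow. In FFPE WT Pico arrays it was -1.15 ± 0.36 in BC57 and -1.54 ± 0.45 in urothelium (SD, n = 6 each), a gap of 0.39 with an exact permutation p of 0.119 (0.119 after adjustment). The FFPE gap was 0.75 at 0.5 ng (exact p = 0.3) and 0.04 at 2 ng (exact p = 0.8), and the spread at FFPE 0.5 ng, 0.53 in BC57 and 0.54 in urothelium, was several times that of any other group. At FFPE 50 ng the means were -1.37 in BC57 and -1.99 in urothelium, and at FF 100 ng -1.68 in BC57 and -1.96 in urothelium, with 2 arrays each.

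**Figure D4:**
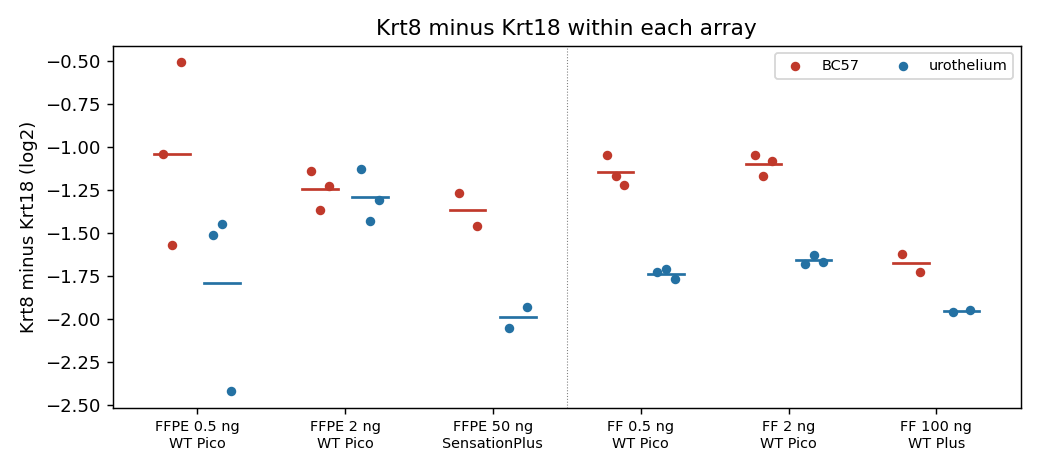
Krt8 minus Krt18 within each array (log2, vertical axis) by condition, with BC57 in red left of urothelium in blue; points are arrays and bars are group means. In the FF WT Pico conditions the BC57 arrays lie around -1.12 and the urothelium arrays around -1.70 without overlap, and at FFPE 0.5 ng the arrays scatter from -2.42 to -0.52.

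Across the 12 group means the patterns of the keratins were alike to different degrees, as a description over groups that share cell type, preservation and kit. Krt18 and Krt19 had Pearson's r = 0.97, and Krt18 stood 26th among 21236 other probe sets in likeness to Krt19. Krt8 and Krt18 had r = 0.96, with Krt18 in the 57th place for Krt8, and Krt7 and Krt8 had r = 0.94, with Krt8 in the 55th place for Krt7. With the mean of each cell type taken out, Krt19 was the probe set most like Krt8 and Krt8 the one most like Krt19, of all 21236. Krt20 was least like the others, with r of 0.74 to Krt7, 0.78 to Krt8, 0.86 to Krt19 and 0.89 to Krt18. Between 220 (Krt7) and 446 (Krt20) probe sets had r above 0.9 to a member, and none of these could be named from the tables used.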

How the data were processed

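Mouse RNA was measured on 32 Affymetrix arrays. The deposited values are on a log2 scale and, per the submitters' processing notes, were made by the authors with RMA in affy (the sources used here give no versions, array design or settings). RMA compresses low values, so that small log2 changes of dim probe sets are understated. Arrays carry no read depth, and their number limits the precision; no arrays were identical. Groups came from the sample labels.

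Each comparison was fitted with limma 3.58.1 (R 4.3.3; lmFit, eBayes with an intensity trend) on the deposited values as they stand, over all 21237 probe sets with no filter, 2-sided, with Benjamini-Hochberg adjustment over all of them. BC57 minus urothelium used the arrays of a condition alone, and other contrasts the 4 groups of the 2 conditions compared. The 31 contrasts include 7 interactions. Exact permutation tests used SciPy 1.17.1 (Python 3.11.15). The fit was tested on simulated data. Alternatives were median centring, quantile normalization, no trend, only the brighter probe sets (mean above the median), all arrays in one fit, a replicate block and leaving out each array.

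All 5 members are named under every comparison, and no other gene is named, because the tables used do not pair the identifiers with symbols. For the same reason, lists of basal keratins, filament linkers, other intermediate filaments and cell type markers were not used. The members and lists were chosen with earlier results of these data known. Gene positions and promoter sequences are from RefSeq on GRCm38.p6, matched by symbol for 5 and 4 members. Whether probes also match near-identical keratin copies was not tested.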

Additional observations from a re-analysis of the deposited data

Results flagged for a closer look

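In 20 of 35 interaction tests the BC57 minus urothelium value of a keratin differed between conditions at an adjusted p under 0.05 (limma). In each of these it was higher in the FFPE condition (6.68% to 17.1% of all probe sets in that direction, by FFPE comparison). For Krt19 and Krt20 it went from below 0 in FF RNA to above 0 in FFPE RNA as deposited. With quantile normalization 6 of the 35 had an adjusted p under 0.05, 1 of them (Krt8, 0.51) between FF 0.5 ng and FF 100 ng, so most of the values below depend on the scaling. As deposited, against FF 100 ng this held for Krt7 (0.48), Krt8 (1.22) and Krt19 (0.71) at FFPE 0.5 ng. At FFPE 2 ng it held for Krt7 (0.49), Krt8 (0.75), Krt18 (0.99), Krt19 (0.59) and Krt20 (0.86). At FFPE 50 ng it held for Krt8 (0.75), Krt19 (0.56) and Krt20 (0.92). Between FFPE and FF RNA at equal WT Pico input it held at 0.5 ng for Krt7 (0.60), Krt8 (1.05), Krt18 (0.89) and Krt19 (0.67), and at 2 ng for Krt7 (0.69), Krt8 (0.64), Krt18 (1.15), Krt19 (0.64) and Krt20 (0.83). The medians of all probe sets also differed between FFPE and FF arrays, and their part in these values was not tested. The 35 tests reuse the same arrays and are not independent. The share of all probe sets past this threshold with quantile normalization was not counted.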

How the results depend on the processing

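All 155 values kept their direction and their side of the call with no intensity trend, with all 32 arrays in one fit and with only the brighter probe sets (mean above the median). Replicate numbers did not pair the arrays where at least 3 pairs could be formed: in none of those 12 comparisons did every pair deviate together at r above 0.1 (range -0.461 to 0.293). In 3 of the 12 comparisons with 2 pairs they did (range over the 12 -0.089 to 0.155), all 3 among the FFPE 50 ng and FF 100 ng arrays. The replicate block moved 1 call, Krt8 at FFPE 0.5 ng against FF 100 ng (interaction 1.22, adjusted p = 0.0555). Some limma interactions against FF 100 ng crossed an adjusted p of 0.05 without a change of call. With all 32 arrays in one fit, 1 member passed at FFPE 50 ng (Krt8 0.112, Krt20 0.0506) and 5 at FFPE 0.5 ng, against 3 at each in the main fit. With the replicate block 1 passed at FFPE 0.5 ng and 4 at FFPE 50 ng.

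Median centring turned 3 directions, all near 0: Krt20, FF 2 ng against FF 100 ng (interaction, -0.03), and Krt7, FF 0.5 ng minus FF 100 ng in urothelium (0.02) and FFPE 50 ng minus FF 100 ng in BC57 (-0.02). It brought Krt7 at FFPE 2 ng (1.03) and Krt18 at FFPE 0.5 ng (1.06) to the call between cell types.

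Quantile normalization turned 19 directions and ended 20 calls of 157; 6 interactions then had an adjusted p under 0.05, against 20 as deposited. Between cell types it ended the calls of Krt8 at FFPE 2 ng (0.78) and 50 ng (0.71) and of Krt18 at FFPE 2 ng (0.70), and turned Krt19 at FFPE 2 ng (-0.07) and FF 0.5 ng (0.04). Interactions turned for Krt8 at 2 ng between FFPE and FF (-0.15), Krt7 at FFPE 50 ng against FF 100 ng (-0.28) and Krt19 at FF 2 ng against FF 100 ng (0.17). In FFPE minus FF, Krt7 turned in BC57 at 0.5 ng (0.31) and 2 ng (0.43) and in urothelium at 2 ng (0.17). For FFPE 50 ng minus FF 100 ng the turned values were Krt18 in BC57 (-0.13) and Krt7 (0.31), Krt8 (0.05) and Krt19 (0.02) in urothelium. For WT Pico minus SensationPlus in BC57, Krt7 turned at 0.5 ng (0.22) and 2 ng (0.27). In 0.5 minus 2 ng they were Krt8 (0.07) and Krt19 (0.16) in FFPE BC57 and Krt7 (0.01) and Krt18 (0.00) in FF urothelium, and in FF 0.5 ng minus FF 100 ng Krt7 in urothelium (0.02). The cause was not tested.

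Leaving out 1 array at a time gave 0.84 to 1.10 for Krt18 between cell types at FFPE 0.5 ng. Among interactions against FF 100 ng it gave 1.0 to 1.43 for Krt8 (FFPE 0.5 ng; adjusted p 0.0135 to 0.147), 0.59 to 1.14 for Krt20 (FFPE 0.5 ng), 0.92 to 1.06 for Krt18 (FFPE 2 ng), -0.02 to 0.09 (FF 0.5 ng) and -0.10 to 0.00 (FF 2 ng) for Krt19, and -0.01 to 0.07 for Krt20 (FF 2 ng). For Krt8 between FFPE and FF at 0.5 ng it gave 0.83 to 1.25, with the call lost without any of 3 arrays. Krt20 at FF 2 ng minus FF 100 ng lay between -1.02 and -0.99 in BC57 and between -1.07 and -0.99 in urothelium, and at FFPE 0.5 minus 2 ng in BC57 between -0.40 and 0.16. Values near 0 changed sign for Krt7 at FFPE 50 ng minus FF 100 ng (-0.01 to 0.13 in BC57, -0.08 to 0.01 in urothelium). At FF 0.5 minus 2 ng they did so in BC57 for Krt7 (-0.01 to 0.05), Krt8 (-0.08 to 0.02) and Krt18 (-0.01 to 0.03), and in urothelium for Krt18 (-0.03 to 0.00). The Krt8 minus Krt18 gap in FF arrays was 0.59 at 0.5 ng alone and 0.56 at 2 ng alone, each with an exact p of 0.1.

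Counts of called probe sets moved over 1.5 times with quantile normalization: 1452 against 955 as deposited between cell types at FFPE 0.5 ng, and in FFPE minus FF 1574 against 3236 (BC57) and 2889 against 6007 (urothelium) at 0.5 ng, 929 against 1754 (BC57) and 2402 against 4814 (urothelium) at 2 ng, and 664 against 1000 in BC57 at FFPE 50 ng. For FFPE interactions they were 723 against 1584 and 670 against 1343 (0.5 and 2 ng against FF 100 ng), and 755 against 1573 and 781 against 1477 (equal input). In BC57 they were 507 against 773 (FF 0.5 ng minus FF 100 ng) and 1471 against 2419 (FFPE 0.5 minus 50 ng). At FFPE 0.5 minus 2 ng, all 32 arrays in one fit called 29 against 4 in BC57 and 29 against 0 in urothelium, although no member was called. With only the brighter probe sets, fewer of which were tested, counts were 2022 against 3236 (BC57) and 2665 against 6007 (urothelium) in FFPE minus FF at 0.5 ng, 2635 against 4814 in urothelium at 2 ng, 1370 against 2528 for FFPE 0.5 minus 50 ng in urothelium, and 175 against 325 (FFPE 50 ng) and 97 against 161 (FF 2 ng) for interactions with FF 100 ng. Other counts that moved were of 4 or fewer.

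The small number of arrays, the single cell line and the tie of kit to input limit all values.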
